A study of Mus musculus with 9 samples.

Results

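The 77 mitochondrial ribosomal protein genes measured here are the genes of the deposited gene-body table whose symbol starts with Mrpl or Mrps followed by a digit. They are 77 of 24391 genes, 48 named Mrpl for the large subunit and 29 named Mrps for the small subunit. The measurements are PRO-seq read counts, in which each read marks an RNA polymerase caught in the act of transcription, so a change is one of engaged polymerase and not of messenger RNA or protein. The 9 mouse libraries come from 2 related erythroid progenitor lines that share the loss of GATA1, the transcription factor that drives red cell maturation, and that were grown with epoetin and kit ligand. They are untreated G1E (n = 2) and G1E-ER4, which is G1E expressing the fusion protein GATA1-ER, without estradiol (0 h, n = 3) and with 100 nM estradiol, which activates the fusion, for 13 h (n = 2) or 24 h (n = 2). Both are single lines grown in culture, and the labels do not say that replicates were separate cultures, so each p-value measures only the spread between these libraries.

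Mitochondrial ribosomes are built from RNA encoded in mitochondrial DNA and from proteins encoded in the nucleus and imported. They make the few respiratory chain and ATP synthase subunits that mitochondrial DNA encodes. Some of their proteins descend from the bacterial ribosome and others have no bacterial counterpart. Maturing red cells need mitochondria for haem synthesis and later discard them together with their ribosomes. Some members do not follow their symbol, since Mrps30 and Mrps18a sit in the large subunit and Mrps36 is a component of the alpha-ketoglutarate dehydrogenase complex. Counted by place, the 77 members hold 50 proteins of the large subunit, 26 of the small subunit and Mrps36.

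Gene-body reads summed to between 37830789 and 139945759 per library, and reads in the elements, which are the deposited regions of polymerase initiation or single strands of them, to between 15394427 and 59952454. Levels are in CPM, read counts scaled to a common library size, here by the TMM-scaled gene-body total, and are not divided by gene length, so they are compared between libraries and never between genes. Every one of the 77 members passed the filter on low counts that left 13825 genes, no member had 0 reads in any library, and the lowest member count was 9. At least 1 CPM was reached by 7 of 10 erythroid markers at 0 h and by 10 of 10 at 24 h, and their summed level was 1055 to 1196 CPM at 0 h and 4793 to 5661 CPM at 24 h. The 8 mast cell and basophil markers summed to 37 to 85.1 CPM at 0 h and to 0.818 to 0.991 CPM at 24 h, and 8 megakaryocyte markers to 37.8 to 53.7 and 73.3 to 116 CPM. No granulocyte, monocyte or stromal marker reached 1 CPM in any group. Of 9 lymphocyte markers 1 did so, in G1E, where they summed to 2.74 to 4.49 CPM, against at most 1.77 CPM in a library of G1E-ER4. In these bulk libraries fewer cells of a type and less transcription per cell cannot be told apart, and the part of the mast cell and megakaryocyte markers in the results below was not tested.

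Promoter windows are given for 6 members. They run over the 250 bases before the RefSeq gene start (build GRCm38.p6) and are written 5′ to 3′ on the gene's strand. They were chosen for the size of the gene-body change at 24 h against 0 h. Mrps6, Mrpl12 and Mrpl52 had the largest falls, and Mrpl55, Mrps18c and Mrpl35 the largest rises among members with a RefSeq window. Mrpl4 rose more than Mrpl35 but had no such window. Capitals mark exact matches, on either strand, to 7 short motifs.
Mrps6, chr16:92058086-92058335 (+): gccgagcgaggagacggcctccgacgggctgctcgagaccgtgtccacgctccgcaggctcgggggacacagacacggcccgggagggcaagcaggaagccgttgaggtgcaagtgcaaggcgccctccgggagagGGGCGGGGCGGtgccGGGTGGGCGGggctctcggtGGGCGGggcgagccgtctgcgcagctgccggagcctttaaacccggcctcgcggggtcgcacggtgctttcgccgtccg
Mrpl12, chr11:120484387-120484636 (+): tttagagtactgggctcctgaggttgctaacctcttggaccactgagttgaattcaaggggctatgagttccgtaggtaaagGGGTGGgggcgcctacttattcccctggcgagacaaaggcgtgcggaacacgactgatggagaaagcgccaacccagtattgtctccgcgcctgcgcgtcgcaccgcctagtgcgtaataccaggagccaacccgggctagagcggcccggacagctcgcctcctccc
Mrpl52, chr14:54426659-54426908 (+): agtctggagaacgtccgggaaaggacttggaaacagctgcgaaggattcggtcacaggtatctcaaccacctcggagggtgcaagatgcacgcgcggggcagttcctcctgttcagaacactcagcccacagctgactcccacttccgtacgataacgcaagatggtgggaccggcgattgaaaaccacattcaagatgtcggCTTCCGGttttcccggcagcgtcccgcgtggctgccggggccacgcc
Mrpl55, chr11:59202236-59202485 (+): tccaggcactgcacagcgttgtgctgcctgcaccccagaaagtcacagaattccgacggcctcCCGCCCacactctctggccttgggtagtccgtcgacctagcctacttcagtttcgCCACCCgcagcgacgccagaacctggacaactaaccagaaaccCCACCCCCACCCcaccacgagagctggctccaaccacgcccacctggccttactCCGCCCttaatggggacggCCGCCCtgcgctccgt
Mrps18c, chr5:100798509-100798758 (+): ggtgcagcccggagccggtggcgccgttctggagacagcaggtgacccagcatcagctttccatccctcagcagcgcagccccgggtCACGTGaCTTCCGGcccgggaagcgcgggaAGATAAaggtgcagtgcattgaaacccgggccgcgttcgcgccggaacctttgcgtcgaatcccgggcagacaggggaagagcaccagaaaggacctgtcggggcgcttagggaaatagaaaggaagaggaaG
Mrpl35, chr6:71823785-71824034 (-): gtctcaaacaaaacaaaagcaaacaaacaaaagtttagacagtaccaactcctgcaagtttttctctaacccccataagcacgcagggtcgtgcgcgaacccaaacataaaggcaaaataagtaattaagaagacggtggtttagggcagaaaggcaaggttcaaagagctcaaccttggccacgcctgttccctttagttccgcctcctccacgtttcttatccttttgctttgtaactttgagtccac
The motifs searched were those of NRF1 (GCGCATGCG), of the ETS factors (CCGGAAG), of YY1 (AAGATGGCG), of E-box factors (CACGTG), the GC box (spelled GGGCGG), the CACC box of KLF factors (spelled CCACCC) and the site of the GATA factors (spelled AGATAA). The window searched was 300 bases long, the 250 printed and 50 after the start. Matches of different motifs may overlap. The Mrps6 window held 4 GC boxes and 1 CACC match, and the Mrpl55 window 3 of each. In Mrpl12 the only match was CACC, 168 bases before the start. Mrpl52 held ETS matches 47 bases before and 3 bases after the start, the latter beyond the printed bases. Mrps18c held an E-box, an ETS match, a GATA match 133 bases before the start and a GC box that begins at the last printed base. Mrpl35 held a single match, YY1, 24 bases after the start, so its printed window has no capitals.

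Windows were on hand for 68 of the 77 members and for 17492 protein-coding genes. These coding genes were not limited to those that passed the filter on low counts, as all members did. The 2 sets are therefore unlike in expression, and the part of that in the shares was not tested. ETS, the binding motif of factors such as GABP, was in 24 of the 68 members (35.3%) and in 11.9% of coding genes. YY1 was in 8 members (11.8%) against 1.94%, and NRF1 in 7 (10.3%) against 2.41%. GATA letters were in 11 members (16.2%) against 9.96%. The GC box was in 34 members (50%) against 46.3%, CACC in 18 (26.5%) against 32.8%, and the E-box in 5 (7.35%) against 7.90%. At 24 h against 0 h the 11 members with GATA letters had 3 rises and 3 falls of gene-body signal and a median log2 change of 0.08, and the 57 without had 3 rises, 26 falls and a median of -0.37, beside 29.0% rises and 30.7% falls among all genes. For ETS the split was 2 rises and 11 falls among 24 members, and 4 rises and 18 falls among 44. Members with YY1 letters had 1 rise and 5 falls among 8 (median -0.63), those with NRF1 1 rise and 2 falls among 7 (-0.08), and those with an E-box 1 rise and 2 falls among 5 (-0.20). Members with a GC box had 2 rises and 15 falls among 34 (-0.35), and those with CACC 1 rise and 7 falls among 18 (-0.32). These are counts of letters in a window and were given no test.

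After 24 h of estradiol the gene-body signal of 36 of the 77 members had fallen and that of 7 had risen, against 30.7% and 29.0% of all genes tested (edgeR quasi-likelihood test, adjusted over all genes). The members that fell were 46.8% of the set and those that rose 9.09%. The median log2 change over the members was -0.38, against -0.07 over all genes, and 54 of 77 lay below 0. Member reads made up 0.326% to 0.327% of gene-body reads in the 3 libraries at 0 h, 0.25% to 0.256% at 13 h and 0.173% to 0.174% at 24 h, with no overlap between times. In G1E the share was 0.303% and 0.339%, a range that holds the 0 h libraries. These shares are of unscaled gene-body totals. Scaled by such totals, the all-gene median log2 change at 24 h against 0 h was itself -0.45, so the lower share is not particular to members in full.

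**Figure D1:**
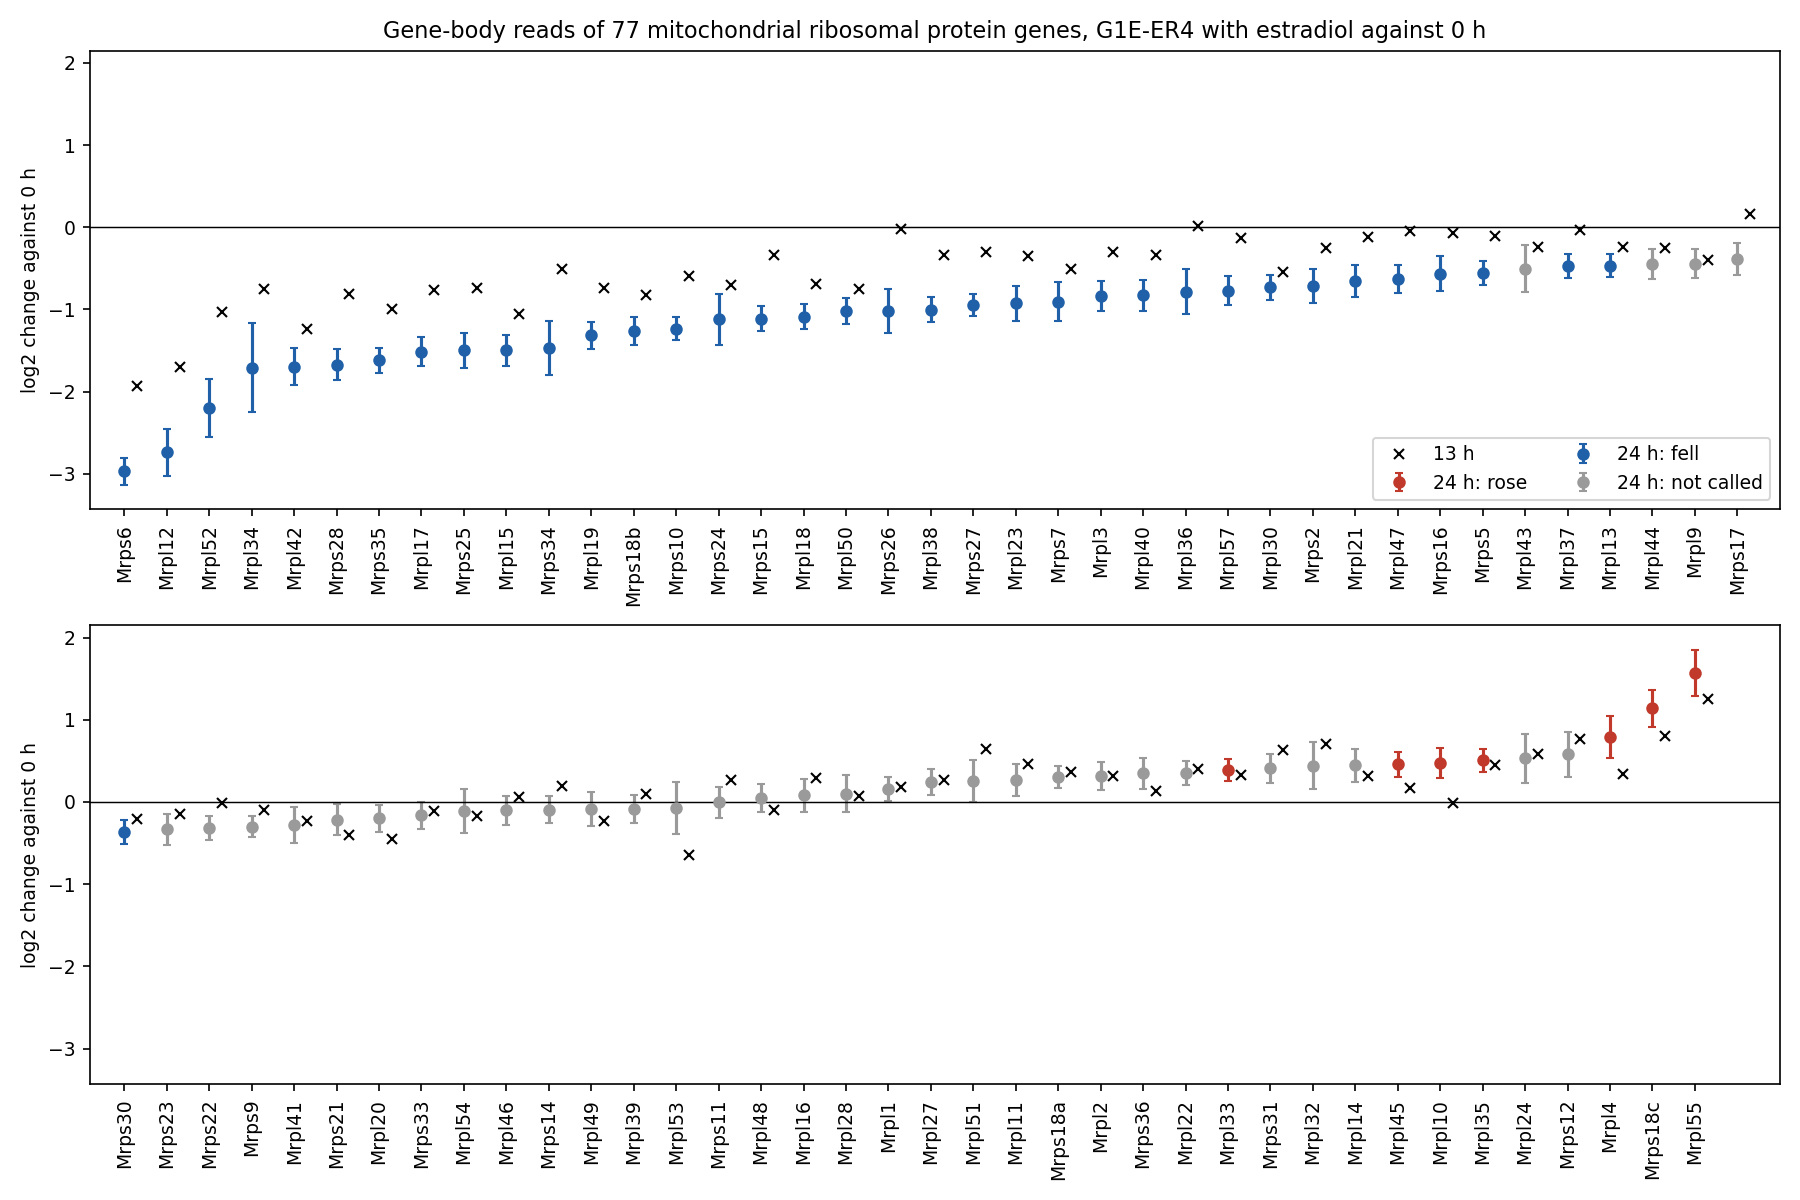
Log2 change of gene-body signal at 24 h against 0 h for each of the 77 members, sorted, with points for the fitted change, bars for its standard error and crosses for the change at 13 h against 0 h. The changes run from -2.97 in Mrps6 to 1.57 in Mrpl55, and 54 of the 77 points lie below 0.

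The fall among members did not rest on 1 library, but the number of rises did. Leaving out each library in turn gave 26 to 36 falls. The 7 rises became 2 without 24 h replicate 1 and 3 without 24 h replicate 2. Scaling by plain total counts, without the TMM correction for a few genes that take many reads, gave 50 falls and 2 rises and moved the all-gene median to -0.45. The member median was then -0.77, and the distance between the 2 medians was -0.32 under either scaling. Under total counts the split of all genes went from 4014 rises and 4246 falls to 2614 and 5863.

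The largest fall was that of Mrps6, a protein of the small subunit with a bacterial counterpart. Its levels were 96.1, 97.7 and 108 CPM at 0 h, 26 and 26.8 CPM at 13 h, and 13.0 and 12.7 CPM at 24 h. G1E, at 117 and 155 CPM, lay above 0 h, although that difference was not called (adjusted p = 0.0645, edgeR). The groups of the time course did not overlap, and the log2 change at 24 h against 0 h was -2.97 (SE 0.16, adjusted p = 7.07e-07, edgeR). Slc5a3, a myo-inositol transporter gene, lies within the Mrps6 span on the same strand and fell alongside, from 83.8, 67.7 and 73.2 CPM at 0 h to 8.59 and 8.05 CPM at 24 h. Reads from both genes cannot be told apart where they overlap, so the Mrps6 value may hold Slc5a3 reads and its size is uncertain.

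Mrpl12, a protein of the flexible stalk of the large subunit that also binds the mitochondrial RNA polymerase, had the next largest fall. Its levels were 36.2, 42.8 and 43.6 CPM at 0 h, 8.99 and 16.2 CPM at 13 h, and 7.26 and 4.98 CPM at 24 h. The log2 change at 24 h was -2.74 (SE 0.28, adjusted p = 2.17e-05, edgeR). Mrpl12 was also among the members that were lower in G1E-ER4 at 0 h than in G1E, where it stood at 67.6 and 76.7 CPM, so its order was G1E, 0 h, 13 h, 24 h with no overlap between neighbours. Its neighbour Hgs, an endosomal sorting gene transcribed from the same strand and sharing the start element, went the other way, from 27.1, 37.0 and 36.3 CPM at 0 h to 91.0 and 104 CPM at 24 h.

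Mrpl52, a large subunit protein without a bacterial counterpart, fell by 2.20 on the log2 scale at 24 h (SE 0.35, adjusted p = 0.000385, edgeR). Its levels were 27.4, 13.4 and 24.9 CPM at 0 h and 5.36 and 4.18 CPM at 24 h. At 13 h the values of 13.5 and 8.03 CPM overlapped the lowest 0 h library. The neighbouring Mmp14, a membrane metalloproteinase gene on the same strand, fell from 52.1, 61.2 and 64.1 CPM at 0 h to 1.82 CPM in both 24 h libraries. The part of Mmp14 reads in the Mrpl52 value was not tested.

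Falls of about 3-fold were seen in members whose start element names no other gene. Mrpl42, a large subunit protein particular to mitochondria, stood at 34.9, 48.1 and 48.5 CPM at 0 h, then 16.1 and 11 CPM at 24 h (log2 change -1.69, SE 0.23, adjusted p = 0.000116, edgeR). Mrps28, a small subunit protein, went from 179, 201 and 205 CPM to 73.2 and 49.2 CPM (log2 change -1.67, SE 0.19, adjusted p = 4.29e-05, edgeR). Mrps35, also of the small subunit, went from 74.4, 84.0 and 76.8 CPM to 26.7 and 24.3 CPM (log2 change -1.62, SE 0.16, adjusted p = 1.37e-05, edgeR). For all 3 genes the 13 h libraries lay between those of 0 h and 24 h.

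Mrpl17 and Mrpl15, large subunit proteins with bacterial counterparts, fell to about the same degree as Mrps25 of the small subunit. Mrpl17 stood at 134, 175 and 176 CPM at 0 h and 62.1 and 51.2 CPM at 24 h, and Mrpl15 at 136, 179 and 192 CPM and then 59.3 and 60.2 CPM. Mrps25 stood at 28.8, 35.4 and 35.4 CPM and then 13.6 and 9.87 CPM. Their log2 changes were -1.51, -1.50 and -1.50. The Mrps25 span crosses Nr2c2, a nuclear receptor gene, and has no start element of its own in the deposited table. The calls at 24 h against 0 h of these 9 members, from Mrps6 to Mrps25, held under all 16 alternatives tried.

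The 7 members that rose were led by Mrpl55, a large subunit protein. It stood at 8.16, 5.14 and 7.22 CPM at 0 h, 19.3 and 13.5 CPM at 13 h, and 16.1 and 24.4 CPM at 24 h. Both later times lay above 0 h and overlapped each other, and the log2 change at 24 h was 1.57 (SE 0.28, adjusted p = 0.000793, edgeR). Mrps18c, a small subunit protein, stood at 13.5, 10.7 and 10.9 CPM at 0 h, then 25 and 26.6 CPM at 24 h (log2 change 1.14, SE 0.22, adjusted p = 0.00133, edgeR). Its 13 h libraries differed from each other, at 25.2 and 15.7 CPM. The calls of Mrpl55 and Mrps18c at 24 h held under all 16 alternatives.

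The other 5 rises, of large subunit proteins, were small and rested on the choice of libraries. Mrpl4 stood at 31.9, 18.9 and 23.8 CPM at 0 h, then 45.2 and 40.9 CPM at 24 h, a log2 change of 0.80 (adjusted p = 0.0211, edgeR). Mrpl35 (0.51), Mrpl10 (0.48), Mrpl45 (0.46) and Mrpl33 (0.39) rose less. Without 24 h replicate 1 the adjusted p (edgeR) was 0.1 for Mrpl4, 0.0587 for Mrpl35, 0.101 for Mrpl10, 0.0675 for Mrpl45 and 0.0852 for Mrpl33. Without 24 h replicate 2 it was 0.0548 for Mrpl4, 0.134 for Mrpl10, 0.0933 for Mrpl45 and 0.125 for Mrpl33. Leaving out a 0 h library also ended the calls of Mrpl4 (replicates 2 and 3), Mrpl10 and Mrpl45 (replicates 1 and 2) and Mrpl33 (replicates 1 and 3), and leaving out either G1E library ended that of Mrpl10. Under total-count scaling all 5 lost their call, and Mrpl33 had a change of -0.002.

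**Figure D2:**
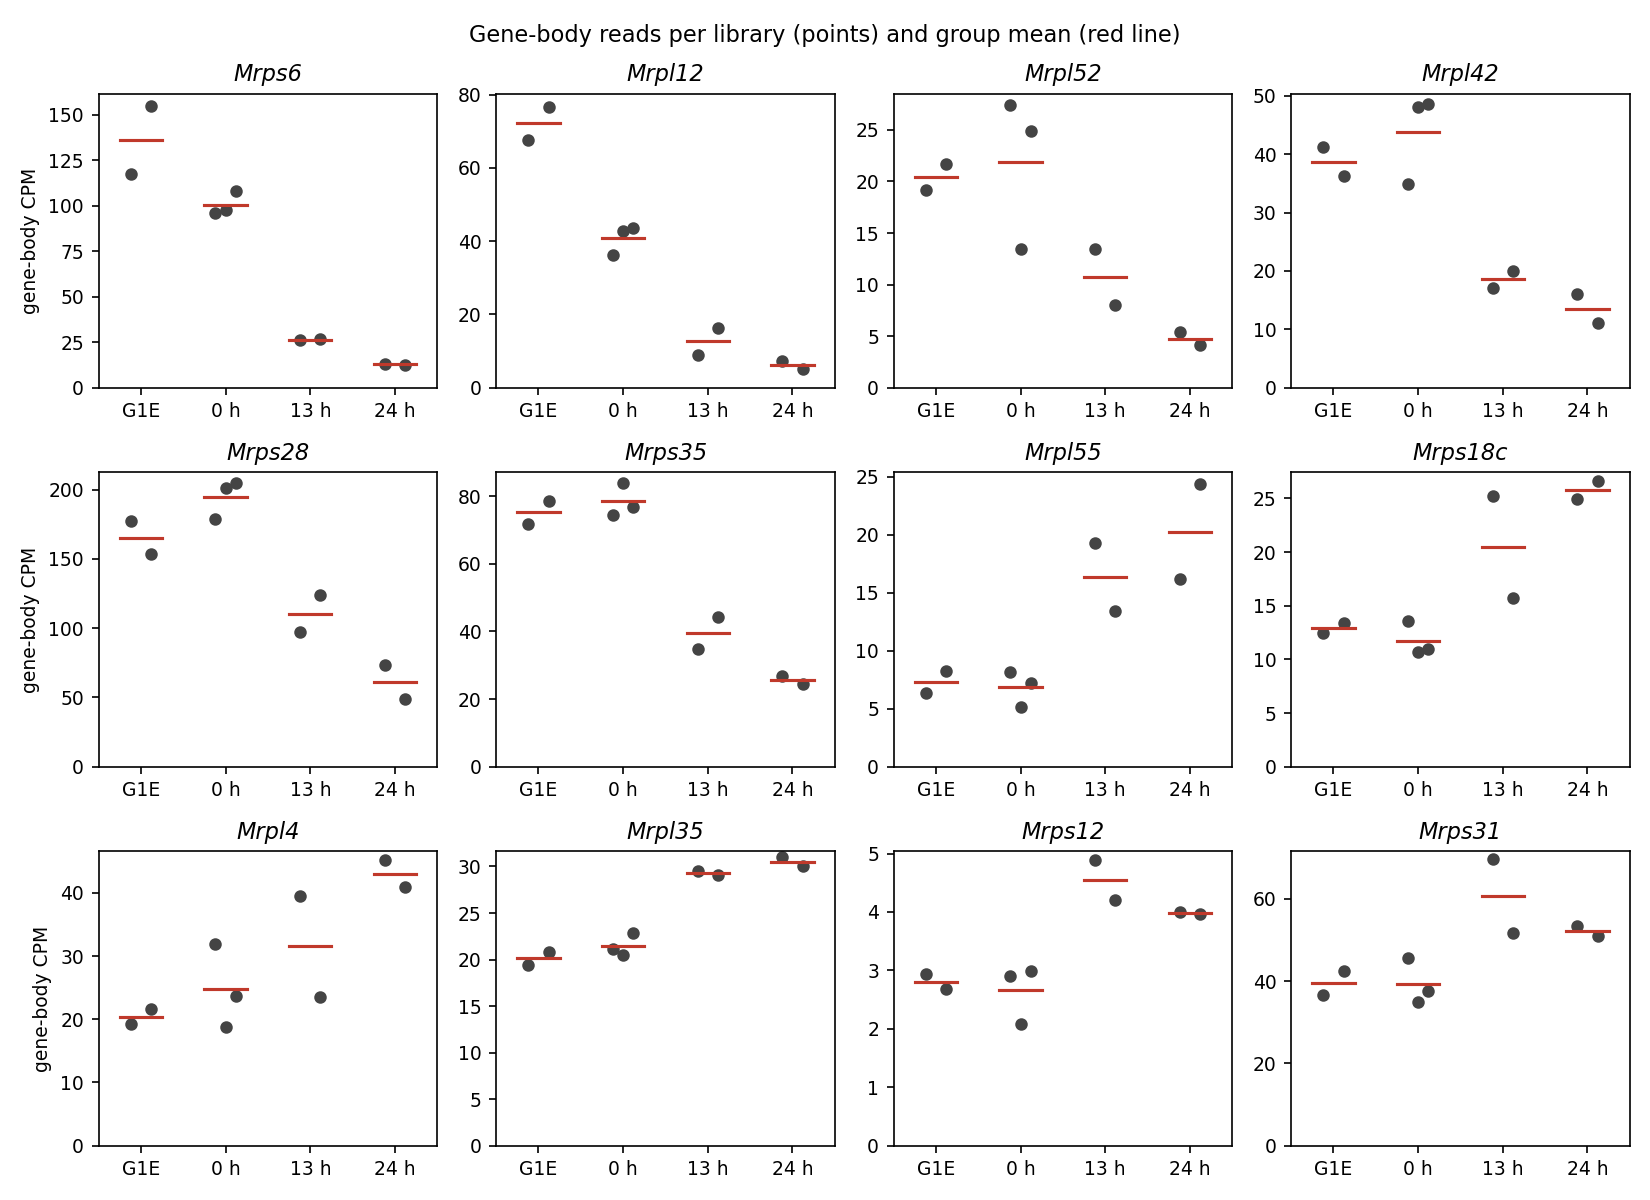
Gene-body level in CPM (vertical axis) of 12 members in each of the 9 libraries, by group, with a point per library and a line at each group mean. The 24 h points of Mrps6 to Mrps35 lie below those of 0 h, and those of Mrpl55 to Mrps31 above. The panels from Mrps6 to Mrpl35 were chosen for a called change without overlap of these groups, so their separation follows from the choice. The changes of Mrps12 and Mrps31 at 24 h were not called.

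The Mrps18 family gives 3 paralogs that share a bacterial ancestor and did not move together. Mrps18b of the small subunit fell, from 58.8, 57.3 and 64.7 CPM at 0 h to 28.0 and 22.1 CPM at 24 h (log2 change -1.26, adjusted p = 0.000128, edgeR). Mrps18c rose, as above, with a log2 change of 1.14. Mrps18a, which sits in the large subunit, stood at 62.0, 60.7 and 64.7 CPM and then 71.8 and 81.9 CPM, a change of 0.30 that was not called (adjusted p = 0.0758, edgeR). Its span crosses Rsph9, whose mean level went from 2.33 CPM at 0 h to 6.45 CPM at 24 h (log2 change 1.47, adjusted p = 0.00249, edgeR). The part of Rsph9 reads in the Mrps18a value was not tested. Mrps30, the other large subunit protein under an Mrps symbol, changed by -0.37 (adjusted p = 0.0473, edgeR). That call was lost in 14 of 16 alternatives, among them the omission of any single library, at adjusted p (edgeR) from 0.0542 to 0.168. Mrps36 of the dehydrogenase complex was not called (0.35, adjusted p = 0.132, edgeR).

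Both subunits held members that fell at 24 h against 0 h, beside 30.7% falls and 29.0% rises among all genes. In the large subunit 21 of 50 members fell and 6 rose, with a median log2 change of -0.24. In the small subunit 15 of 26 fell and 1 rose, with a median of -0.64. Members with a bacterial counterpart had 22 falls and 6 rises among 46 (median -0.41), and those particular to mitochondria 14 falls and 1 rise among 31 (median -0.37). The 10 small subunit members particular to mitochondria had 6 falls and a median of -0.98. In this split Mrps18a and Mrps18b were counted as particular to mitochondria, although they share a bacterial ancestor with Mrps18c. Mrps18b is among the falls of that class. Differences between these classes were not tested.

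The 13 h libraries already held called falls, in fewer members than at 24 h. At 13 h against 0 h, 16 of 77 members had fallen (20.8%) and 5 had risen (6.49%), against 20.9% and 20.1% of all genes (edgeR), with a median of -0.13 over members and -0.02 over all genes. The comparison shares its 0 h libraries with that at 24 h. Without 13 h replicate 1 no member was called as risen at 13 h (edgeR), without 0 h replicate 3 there was 1, and the falls numbered 11 to 16 over the omissions. For comparison, 11 members rose at 13 h at an unadjusted p under 0.05, and DESeq2 called 11.

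The 13 h falls were again largest in Mrps6 (log2 change -1.93, SE 0.16, adjusted p = 1.76e-05, edgeR) and Mrpl12 (-1.70, SE 0.27, adjusted p = 0.000783, edgeR). Mrpl42 changed by -1.24 and Mrpl15 by -1.05. These 4 calls and those of Mrps35 and Mrps18b at 13 h held under all 16 alternatives. The fall of Mrpl52 at 13 h was lost without 0 h replicate 1 (adjusted p = 0.0838), 0 h replicate 3 (0.0886) or 13 h replicate 2 (0.19, edgeR). The falls of Mrps28, Mrpl17 and Mrps25 at 13 h were lost without 13 h replicate 1, at adjusted p of 0.0671, 0.0624 and 0.125 (edgeR), and that of Mrps25 also without 0 h replicate 3 (0.0532).

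Mrps12 and Mrps31 were called as risen at 13 h and not at 24 h. Mrps12, the protein of the decoding centre of the small subunit, stood at 2.91, 2.08 and 3.0 CPM at 0 h, 4.89 and 4.20 CPM at 13 h, and 3.99 and 3.96 CPM at 24 h. Its 13 h change of 0.77 (adjusted p = 0.0444, edgeR) was lost in 13 of 16 alternatives, including the omission of any single library, at adjusted p from 0.0526 to 0.195. Mrps31, of the small subunit, stood at 45.7, 34.9 and 37.5 CPM, then 69.7 and 51.8 CPM, then 53.4 and 51.0 CPM. Its 13 h change of 0.63 (adjusted p = 0.0162, edgeR) was lost without 0 h replicate 2 (0.0568), 0 h replicate 3 (0.0559) or 13 h replicate 1 (0.143). The difference between 24 h and 13 h was called in neither gene (-0.19 in Mrps12 and -0.22 in Mrps31). The 13 h rises of Mrpl55, Mrps18c and Mrpl35 were lost without 13 h replicate 1, at adjusted p of 0.0512, 0.18 and 0.0931 (edgeR). That of Mrps18c was also lost without 0 h replicate 3 (0.0523), and that of Mrpl35 without any other 0 h or 13 h library (0.0524 to 0.0889).

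Between 13 h and 24 h, 15 of the 77 members fell (19.5%) against 12.5% of all genes, and 61 of 77 lay below 0. The member median was -0.27 against -0.05 over all genes. In the other direction edgeR called 0 members against 11.7% of genes, with 1 member at an unadjusted p under 0.05 and 0 by DESeq2. Mrps6 fell by 1.04 on the log2 scale (adjusted p = 0.0029, edgeR), Mrpl12 by 1.04 (0.0247), Mrpl52 by 1.17 (0.0405) and Mrps26 by 1.00 (0.0328). Of 16 alternatives, 1 ended the call of Mrps6, 5 that of Mrpl12, 8 that of Mrpl52 and 7 that of Mrps26. The library-number block ended all 4, at adjusted p (edgeR) of 0.0583, 0.142, 0.0715 and 0.295, and the call of Mrpl52 was also lost without any single library other than 0 h replicates 1 and 2 and 13 h replicate 2. Mrps26, a small subunit protein, went from 7.21 and 8.42 CPM at 13 h to 3.30 and 4.53 CPM at 24 h, with 7.65, 8.97 and 7.19 CPM at 0 h, and was not called at 13 h against 0 h (-0.02). Its call at 24 h against 0 h (-1.02, adjusted p = 0.00816, edgeR) was lost without 24 h replicate 1 (0.0736). The count of 15 became 1 without 24 h replicate 2, 9 without 24 h replicate 1 and 6 without 13 h replicate 2. No leading digits of the library numbers in the labels are shared by 13 h and 24 h. A difference between numbered sets can thus be separated from this step only through the 0 h libraries, which carry the digits of both times. With the library-number block the log2 changes were -1.19 in Mrps6, -1.13 in Mrpl12, -1.50 in Mrpl52 and -0.79 in Mrps26.

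Sets of libraries with the same leading digits allowed the other comparisons to be read within a set. At 13 h against 0 h the median over members was -0.21 within the set numbered 15 and -0.13 within the set numbered 16, each with 1 library per time, and over all genes -0.0033 and -0.02. Within the set numbered 18, in which 2 libraries of 24 h stood against 1 of 0 h, the median over members was -0.44, and over all genes -0.05. These libraries are among those of the fits above, so the values are no separate evidence. The labels do not say what these numbers stand for.

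Before estradiol the lines differed in few members. Between G1E-ER4 at 0 h and G1E, 1 of 77 members was higher (1.3%) and 4 were lower (5.19%), against 7.88% and 9.58% of all genes (edgeR), and the median was 0.04 in both sets. Lower in G1E-ER4 were Mrpl12 (-0.82, adjusted p = 0.0454), Mrpl20 (-0.65, 0.0198), Mrpl37 (-0.59, 0.0182) and Mrps15 (-0.50, 0.0372), and Mrpl33 was higher (0.46, 0.0453, edgeR). Mrpl20, a large subunit protein, stood at 31.4 and 32.5 CPM in G1E and at 19.9, 18 and 23.1 CPM at 0 h. None of the 4 lower calls was kept without G1E replicate 2 or 0 h replicate 2. Mrpl37 alone of them was kept without G1E replicate 1, Mrpl20 alone without 0 h replicate 3, and Mrpl20 and Mrpl37 without 0 h replicate 1. The call of Mrpl33 was lost in 14 of 16 alternatives, among them the omission of any library but 13 h replicate 2. With a block for the leading digits of the library number all 5 calls were lost, at adjusted p (edgeR) from 0.24 to 0.331, and with the replicate block 4 of the 5 were, all but that of Mrpl20.

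Elements at gene starts named 73 of the 77 members, in 118 elements from 77 peaks, of which 117 were tested. Whole peaks make up 36 of the 118 and 1 strand of a peak the other 82. More than 1 gene is named by 49 of them, so that 36 members share a start element with another gene. At 24 h against 0 h, 35 of the 117 fell (29.9%) against 20.8% of all start elements, and 20 rose (17.1%) against 30.0% (edgeR). The median log2 change was -0.10 over the members' elements and 0.14 over all. The falls became 14 without 24 h replicate 2, and 20 when elements were scaled by gene-body totals, and the rises 13 without 24 h replicate 1. At 13 h the counts were 10 rises against 16.0% and 13 falls against 13.4%, or 8.55% and 11.1% of the members' elements. The 13 h rises were 5 without 0 h replicate 3 or 13 h replicate 1 and 4 without 13 h replicate 2, and the 13 h falls were 5 without 13 h replicate 1.

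The step from 13 h to 24 h gave 3 rises against 7.85% and 7 falls against 5.10% of start elements. The 3 rises ranged from 0 to 5 and the 7 falls from 1 to 10 as single libraries were left out, with 1 fall without 24 h replicate 2, 2 without 24 h replicate 1, 3 without 13 h replicate 2 and 4 without 13 h replicate 1 or G1E replicate 2. No rise was called without 13 h replicate 2 or either 24 h library, 1 without G1E replicate 1 or 0 h replicate 3, and 5 were called without 0 h replicate 1. Between the lines 1 element was higher against 6.97% and 1 lower against 4.54%.

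Start elements were set beside the gene bodies of some of the members named above. Element changes are scaled by the element reads and body changes by the gene-body reads, so their sizes are not on 1 scale. The median log2 change at 24 h against 0 h was 0.14 over all start elements and -0.07 over all gene bodies. The Mrpl52 element at chr14:55042100-55047001 (mm9, as are all element positions) stood at 127, 80.6 and 139 CPM of element reads at 0 h and 24.9 and 32.0 CPM at 24 h, a log2 change of -2.02 (adjusted p = 5.16e-05, edgeR), beside -2.20 in the gene body. Its other start element, at chr14:55047700-55053251 and shared with Mmp14, fell by 3.14 on the log2 scale (adjusted p = 6.21e-07, edgeR). The Mrps28 element at chr3:8922950-8924451 stood at 56.9, 52.2 and 43.1 CPM and then 45.9 and 33.6 CPM, and its change of -0.35 was not called (adjusted p = 0.17, edgeR), beside -1.67 in the body. An element inside Mrps28 at chr3:8919000-8920401 fell by 1.96 on the log2 scale (adjusted p = 6.24e-05, edgeR), from 12.1 to 13.9 CPM at 0 h to 3.05 and 3.51 CPM at 24 h. The Mrps35 element at chr6:146989950-146992601 changed by -0.80 (adjusted p = 0.00959, edgeR), beside -1.62 in the body. At chr1:4774200-4777151, which names Mrpl15 alone, the plus strand rose, beside -1.50 in the body. That strand stood at 15.2, 14.6 and 14.3 CPM at 0 h and 29.1 and 35.2 CPM at 24 h (log2 change 1.13, adjusted p = 0.00131, edgeR). Whether it is sense to Mrpl15 was not known. Of 7 member strands of unknown orientation 1 rose and 4 fell, beside 30.0% and 20.8% of all start elements.

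Among members that rose, the Mrpl4 element at chr9:20806050-20808901 rose from 68.5, 30.4 and 51.7 CPM at 0 h to 124 and 128 CPM at 24 h (log2 change 1.33, adjusted p = 0.00487, edgeR). The Mrpl55 element at chr11:59014200-59017551, shared with 2610507I01Rik, rose by 0.97 on the log2 scale (adjusted p = 0.00145, edgeR). The Mrps18c element at chr5:101226150-101230201, shared with the helicase gene Helq on the opposite strand, changed by 0.03 (adjusted p = 0.899, edgeR). Mrps18a, whose body was not called, had a start element at chr17:46246950-46249051 that rose by 0.88 (adjusted p = 0.00777, edgeR). For Mrpl33 the sense strand at the start fell by 0.79 (adjusted p = 0.00305, edgeR), from 53.7, 60.3 and 61.5 CPM to 32.6 and 34.9 CPM, while the body was called as risen.

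The ratio of start-element reads to gene-body reads was tested in 73 members among 10161 genes. It was higher at 24 h than at 0 h in 15 members (20.5%), against 17.1% of genes, and lower in 6 (8.22%), against 19.8% (limma). The members' median change was 0.25 and that of all genes -0.04. The higher count became 6 without 24 h replicate 1 and 8 without 24 h replicate 2, and the lower count 3 without 24 h replicate 1. At 13 h it was higher in 5, against 4.71%, and lower in 1, against 5.93% (limma), and both counts came to 0 without 0 h replicate 3 or 13 h replicate 1. The 5 higher were 2 without 0 h replicate 2 or 13 h replicate 2 and 8 without 0 h replicate 1. The 1 lower was also lost without either 24 h library and became 3 without 0 h replicate 1.

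The largest ratio changes were at starts shared with another gene. Mrpl12 had a ratio change of 2.78 on the log2 scale (adjusted p = 0.000241, limma), with the start element at chr11:120344250-120347951 shared with Hgs, whose body rose. Mrps6 changed by 2.01 (8.89e-05), sharing its element with Slc5a3, and Mrps18b by 1.76 (0.000427), sharing an element with Ppp1r10, a phosphatase regulator gene whose body rose from 554, 790 and 645 CPM to 1185 and 1468 CPM. At such starts the reads of the partners cannot be told apart within a whole peak. Over the 40 members with elements that name 1 gene, 9 were higher and 3 lower, against 16.1% and 16.9% of genes, and over the 26 with a known sense strand, 3 were higher and 1 lower, against 10.8% and 11.1%. Over all start elements, shared ones included, Mrps28 (1.14) and Mrps26 (1.26) were among the higher members, and Mrps18c (-1.32), Mrpl33 (-1.17) and Mrpl39 (-0.93) among the lower. Of these, Mrps26 shares its element with 4930473A02Rik and Mrps18c with Helq. On elements that name 1 gene the changes were 1.17 in Mrps28, -1.13 in Mrpl33 and -0.90 in Mrpl39.

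Both strands were compared at 26 starts that name 1 member, have both strands in the table and whose gene strand is in the RefSeq promoter table, which left out the starts of Mrpl15, Mrpl19 and Mrpl38. The antisense strand carries transcription that runs away from the gene. Of the 26 antisense strands 15 were called at 24 h against 0 h and 13 of them fell, against 39.6% and 21.6% of such strands over all genes. The other 2 rose, beside 457 rises among the 2538 strands over all genes. Of the 26 sense strands 4 fell and 3 rose, against 16.4% and 31.6%. The median log2 change was -0.87 for antisense and 0.16 for sense. The antisense change lay below the sense change at 20 of 26 starts (76.9%), and at 1555 of 2521 starts over all genes (61.7%). The difference between members and other genes was not tested. The 13 antisense falls became 5 without 24 h replicate 2, with 0 sense falls, and ranged from 9 to 13 without any other library. They were 8 when scaled by gene-body totals.

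**Figure D3:**
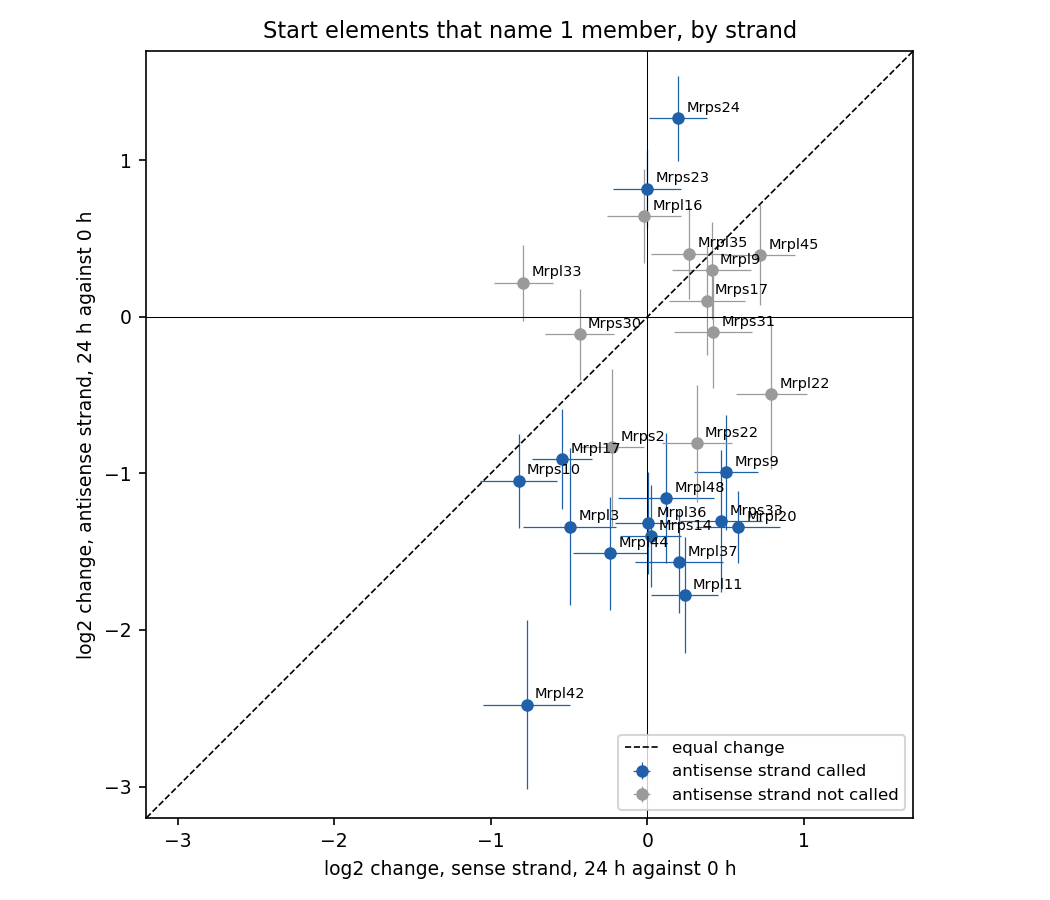
Log2 change at 24 h against 0 h on the sense strand (horizontal axis) and the antisense strand (vertical axis) at the 26 starts that name 1 member and have both strands and a known gene strand, with bars for standard errors. At 20 of the 26 starts the antisense change lies below the sense change, and the lowest antisense point is Mrpl42 at -2.48.

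Mrpl37 shows both strands of a single start. Its antisense strand at chr4:106738050-106740701 stood at 13.1, 19.4 and 15.5 CPM at 0 h and 6.74 and 4.07 CPM at 24 h (log2 change -1.56, adjusted p = 0.00131, edgeR). Its sense strand stood at 27.1, 13.9 and 19 CPM and then 24.1 and 21.9 CPM, which overlap (0.20, adjusted p = 0.572, edgeR). The Mrpl37 span crosses Cyb5rl, whose gene-body signal went from 15.4 ± 5.36 CPM (SD, n = 3) at 0 h to 2.24 ± 0.988 CPM (SD, n = 2) at 24 h (log2 change -2.79, adjusted p = 0.000946, edgeR), and the part of Cyb5rl reads in these values was not tested. Mrpl11 was alike, with antisense -1.78 (adjusted p = 0.00128) and sense 0.24 (0.367, edgeR). Mrpl42 fell on both strands, by 2.48 antisense and 0.77 sense, although its antisense reads were few, at 1.97 to 3.10 CPM at 0 h. The antisense strands that rose were those of Mrps23 (0.82) and Mrps24 (1.27).

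Neighbours that share a start with a member did not always move with it. Mrps12 shares its start with Sars2, the mitochondrial seryl-tRNA synthetase gene on the opposite strand. On the Mrps12 side the start strand rose from 17, 10.4 and 15.4 CPM to 35.4 and 29.7 CPM (log2 change 1.19, adjusted p = 0.00206, edgeR), and on the Sars2 side it fell by 1.40 (adjusted p = 0.000645, edgeR). The Sars2 body fell by 0.98 and the Mrps12 body was not called. Mrpl18 fell by 1.09 together with Tcp1, a chaperonin subunit gene on the opposite strand that fell by 1.76. Mrpl43 was not called (-0.50, adjusted p = 0.153, edgeR), while Peo1, the mitochondrial helicase Twinkle on the opposite strand, fell by 1.90. Mrpl46 and Mrps11, both members, share a start, and neither body was called (log2 changes -0.10 and -0.0045).

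The counts at 24 h against 0 h were also taken by such neighbours, beside 30.7% falls and 29.0% rises among all genes. Of the 33 with no shared start element and no other named gene crossing their span, 15 fell (45.5%) and 4 rose, with a median of -0.37. Of the 36 that share a start, 18 fell (50%) and 3 rose, with a median of -0.48. Of the 19 whose span crosses another named gene, 8 fell (42.1%) and 0 were called as risen by edgeR, with a median of -0.44. Whether the gene-body counts separate strands is not given in the sources used here, so values of members in these last 2 sets are uncertain.

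Mitochondrial ribosomal proteins listed under other symbols were counted apart. At 24 h against 0 h, 2 of 7 fell, and 0 rose by edgeR or at an unadjusted p under 0.05, beside 30.7% and 29.0% of all genes. The 2 were Ptcd3, a small subunit protein that stood at 213 ± 25.5 CPM (SD, n = 3) at 0 h and 73.5 ± 2.89 CPM (SD, n = 2) at 24 h, and Oxa1l, the inner membrane insertase that docks the ribosome, at 57.1 ± 3.21 and 24.9 ± 3.18 CPM. Their log2 changes were -1.54 and -1.20. The list's median was -0.17, against -0.07 over all genes and -0.38 over the members. The difference between these lists was not tested.

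Factors that build the mitochondrial ribosome or modify its RNA had 12 falls and 4 rises among 25, beside 30.7% and 29.0% of all genes, and a median of -0.43. Mpv17l2, an assembly factor, fell by 1.75, Noa1, a GTPase needed for mitochondrial translation, by 1.60, and Rnmtl1, an RNA methyltransferase, by 1.53. Gtpbp10 fell by 3.72 at a level under 1 CPM in every 0 h library. Mrm1 (1.03), Mettl15 (0.90), Eral1 (0.87) and Ybey (0.55), which modify, chaperone or process its RNA, rose. Among 14 translation factors, 6 fell and 0 rose by edgeR or at an unadjusted p under 0.05, with a median of -0.39. They included Tsfm, elongation factor Ts (-1.44), Lrpprc, which stabilises mitochondrial messenger RNA (-1.03), Taco1 (-0.91) and Gfm1, elongation factor G (-0.76), while Tufm, elongation factor Tu, was not called (0.0039, adjusted p = 0.994, edgeR).

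The list with the lowest median among those of the mitochondrial gene expression pathway was transcription and replication of mitochondrial DNA. Of its 11 genes 7 fell at 24 h and 0 rose by edgeR, with 1 rise at an unadjusted p under 0.05, beside 30.7% and 29.0% of all genes, and the median was -0.92. Top1mt, the mitochondrial topoisomerase, went from 9.54 ± 2.35 CPM (SD, n = 3) to 0.925 ± 0.058 CPM (SD, n = 2), a log2 change of -3.36. Polrmt, the mitochondrial RNA polymerase, changed by -1.18, its elongation factor Tefm by -1.08, and Tfam, which packages the DNA, by -0.92. Among 10 nuclear regulators of mitochondrial genes, 4 fell and 3 rose. Pprc1, a coactivator of the PGC-1 family, fell by 3.22 and Myc, which binds E-boxes, by 2.19, whereas Yy1 (1.08), Nrf1 (0.78) and Gabpb1 (1.03) rose. Mean levels at 0 h and 24 h were 352 and 179 CPM for Ppargc1b and 95.4 and 51.2 CPM for Esrra. Gabpb1 is the partner of Gabpa, the subunit that binds the ETS motif, and Gabpa was not called (-0.19, adjusted p = 0.2, edgeR).

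The members' median lay between those of the ribosomal proteins of the cytosol and of the respiratory chain. Of 84 tested cytosolic ribosomal protein genes 80 fell and 1 rose at 24 h, with a median of -1.96. Of 78 tested respiratory chain and ATP synthase genes 21 fell and 22 rose, against 30.7% and 29.0% of all genes, with a median of -0.05, beside 36 falls, 7 rises and a median of -0.38 over the 77 members. At 13 h the medians were -0.91, 0.13 and -0.13 in the same order. All gene-body comparisons at 24 h in this paragraph and the 3 before share the 0 h libraries, and differences between lists were not tested.

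**Figure D4:**
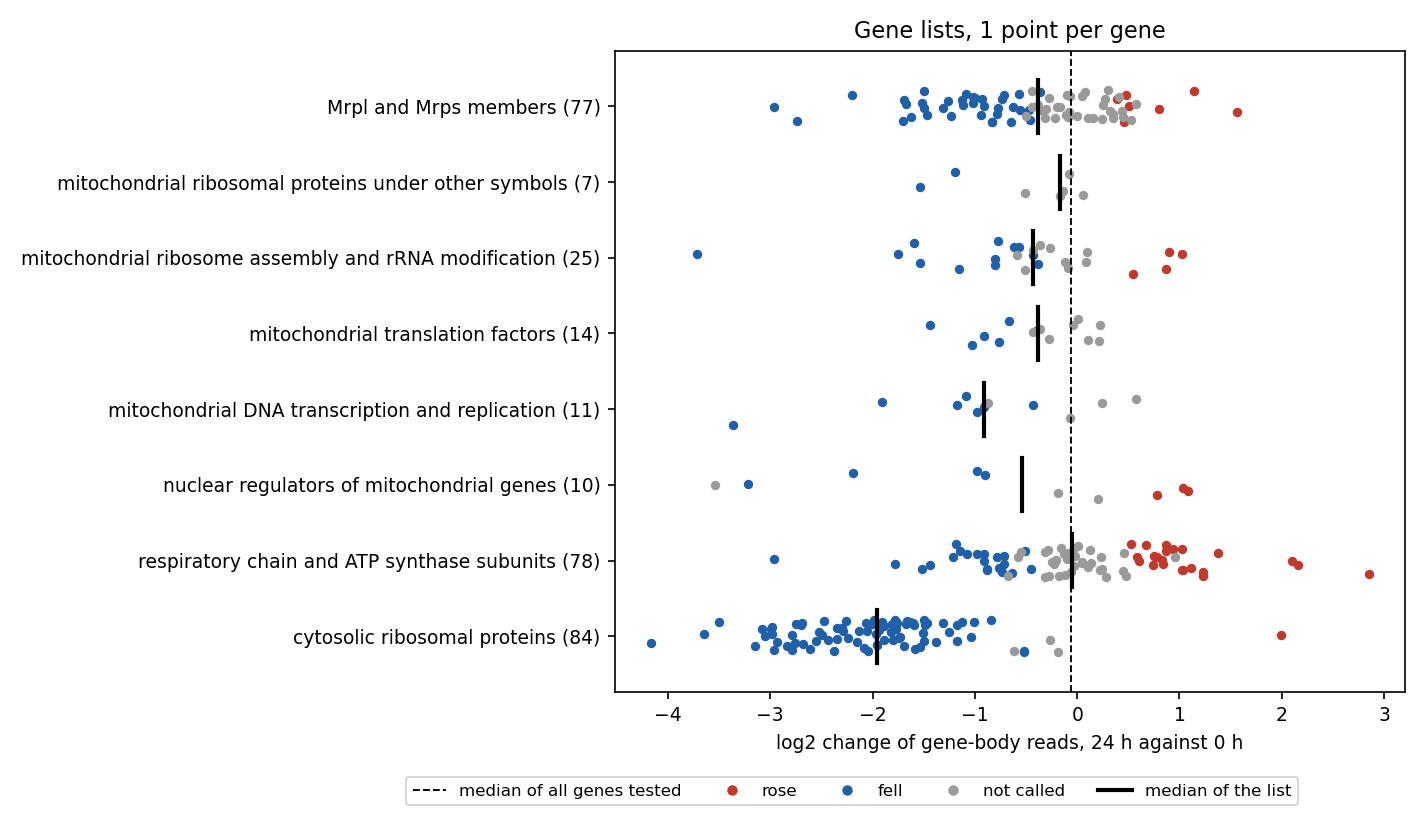
Log2 change of gene-body signal at 24 h against 0 h (horizontal axis) for each tested gene of 8 gene sets, with a point per gene, a bar at each set's median and a dashed line at the all-gene median of -0.07. The cytosolic ribosomal proteins lie lowest, with a median of -1.96, and the respiratory chain and ATP synthase set is centred at -0.05.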

How the data were processed

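PRO-seq gene-body and element tables were used as deposited, and their values are raw read counts, per the file headers. Reads were aligned with BWA to mm9, per the submitters' processing notes. Not given in the sources used here were the counting tool, the annotation and whether gene-body counts use strand. The authors' deposited table also holds a p-value, a percent position and a cluster per element, which were not used.

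After filterByExpr and TMM scaling, a mean for each of the 4 groups was fitted to the counts in edgeR 4.0.16 (R 4.3.3), leaving 5 residual degrees of freedom, and tested by quasi-likelihood with robust settings. Benjamini-Hochberg adjustment ran over 13825 genes or 35158 elements, with a threshold of 0.05. CPM are scaled by the TMM library size. SE is the absolute log2 change over the square root of F. The ratio is log2 of summed start-element reads plus 1 over gene-body reads plus 1, centred on each library's median and tested with limma 3.58.1. DESeq2 1.42.0 was an alternative. The scripts were tested on simulated data.

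Members named with full values are the 8 largest called rises and falls at 24 h and the 4 largest of each other comparison, with a mean count of at least 50 and no overlap, plus members of special role. The members and lists were chosen with earlier results of these data known. RefSeq matched 77 members by gene ID. The sense strand of a start was taken from RefSeq, which gave the same strand as the deposited starts for 4432 of 4437 genes. Same-numbered replicates were not treated as pairs.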

Additional observations from a re-analysis of the deposited data

How the results depend on the processing

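Gene-body counts and medians that moved by more than 1.5 times, or by more than the spread between libraries, are given here by setting. With total counts, 3 members rose at 13 h and 2 at 24 h, 35 fell between 13 h and 24 h, the medians were -0.23 at 13 h, -0.77 at 24 h and -0.56 for 24 h against 13 h, and Mrpl33 changed sign at 24 h (-0.002). With RLE size factors no member was higher in G1E-ER4 at 0 h than in G1E (0). Without the filter 3 rose at 13 h, and 0 were higher and 2 lower between the lines. DESeq2 gave 11 rises at 13 h, 11 at 24 h and 9 lower between the lines. Fits of only the groups compared gave 3 falls between 13 h and 24 h and 0 higher between the lines. With the replicate block 1 rose at 13 h, 9 fell between 13 h and 24 h, and 0 were higher and 1 lower between the lines. The replicate numbers are shared by only 2 libraries a group, and the labels do not say whether same-numbered libraries come from a common source. Deviations of same-numbered libraries correlated at 0.566 and 0.547 between 0 h and 13 h and at 0.043 and -0.049 between 0 h and 24 h. Same-numbered libraries of 0 h and 13 h also share the leading digits of the library number, and those of 0 h and 24 h do not. Pairing by source was not tested. With a block for the leading digits of the library number, 0 fell between 13 h and 24 h, 0 were higher and 0 lower between the lines, and the 24 h median was -0.45. Leaving out single libraries gave 0 to 5 rises at 13 h, 2 to 10 rises at 24 h, 1 to 15 falls between 13 h and 24 h, 0 to 2 higher and 0 to 4 lower between the lines, and medians of -0.47 to -0.35 at 24 h and -0.32 to -0.15 for 24 h against 13 h.

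For start elements, scaling by gene-body totals gave 4 falls at 13 h, 20 at 24 h, 0 rises and 4 falls between 13 h and 24 h, 0 lower between the lines, and 1 sense and 8 antisense falls. Total counts gave 0 rises between 13 h and 24 h, no filter 2 sense falls, and DESeq2 5 rises and 12 falls between 13 h and 24 h. Elements that name 1 gene, which are fewer, gave 6 falls at 13 h, 9 rises at 24 h, 1 rise and 4 falls between 13 h and 24 h, and 0 lower between the lines. The replicate block gave 5 rises at 13 h, 7 rises and 11 falls between 13 h and 24 h, and 3 higher between the lines. The library-number block gave 7 antisense falls, 0 rises and 2 falls between 13 h and 24 h, and 0 lower between the lines. Single omissions gave 4 to 13 rises and 5 to 13 falls at 13 h, 13 to 24 rises and 14 to 35 falls at 24 h, 0 to 5 rises and 1 to 10 falls between 13 h and 24 h, 0 to 2 higher and 0 to 2 lower between the lines, and 0 to 4 sense and 5 to 13 antisense falls.

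For the ratio, a pseudocount of 10 gave 2 lower at 13 h. Elements that name 1 gene gave 2 higher at 13 h and 9 higher and 3 lower at 24 h. No centring gave 3 higher and 0 lower at 13 h and 2 lower at 24 h. The replicate block gave 1 higher and 0 lower at 13 h. Sense strands of single-gene elements, an alternative chosen after seeing the data, gave 0 higher at 13 h and 3 higher and 1 lower at 24 h. Single omissions gave 0 to 8 higher and 0 to 3 lower at 13 h, and 6 to 20 higher and 3 to 8 lower at 24 h.

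Except where fewer elements entered, the cause was not tested. Of the 51 named calls, 2 to 19 were lost per setting (0 under DESeq2), most under the library-number block. The within-number values, the split by shared starts and the strand counts were also added after seeing the data. With 2 or 3 libraries a group, the spread rests on 5 residual degrees of freedom, which limits small changes.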
